A study of Homo sapiens with 24 samples.

Results

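The question addressed here is whether lowering PTPN6 changed the same genes, by the same factor, in macrophages with and without an intact CD33 gene. It was asked with all 23 libraries of the count matrix, of 24 that the labels name, and for 13098 of the 60617 gene identifiers, those with enough counts to test. For each gene the interaction is the log2 fold change that the PTPN6 hairpin gave in CD33 knockout cells minus the log2 fold change it gave in wild-type cells. A positive (higher) interaction means that the gene stood higher in the knockout with the hairpin than the 2 separate effects would give by adding on the log2 scale, and a negative (lower) one that it stood lower.

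All cells were THP1, an established human monocytic leukaemia line that turns into adherent macrophages under the phorbol ester PMA. WT_shCTRL and WT_shPTPN6 were wild type for CD33, and CD33KO_shCTRL and CD33KO_shPTPN6 were CD33 knockout. The labels do not say how many clones the knockout comprises or where in CD33 the edit lies. Loss of CD33 therefore cannot be told apart here from other differences between the 2 lines. Lentivirus made in HEK-293FT cells carried either the empty pLKO.1 vector (shCTRL) or 1 hairpin against PTPN6 (shPTPN6), so the control vector holds no hairpin. Every group received virus for 24 hours, rest for 48 hours, 1 µg/ml puromycin for selection, 10 ng/ml PMA for 48 hours and a further 48 hours without PMA. There were 6 libraries in each of WT_shCTRL, WT_shPTPN6 and CD33KO_shCTRL and 5 in CD33KO_shPTPN6, whose replicate 2 was not analysed here. Nothing in the labels says that replicates came from separate cultures, and a p-value here can only weigh a difference against the spread of the libraries.

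CD33 is a sialic acid-binding receptor of the Siglec family on myeloid cells. When its cytoplasmic tyrosine motifs are phosphorylated by Src kinases, they recruit the phosphatases SHP-1 and SHP-2, which remove phosphate from activating signalling proteins. PTPN6 encodes SHP-1, which also serves many other inhibitory receptors, so the phosphatase can act with or without CD33, and the CD33 gene is studied in microglia and macrophages because variants near it are linked to the risk of Alzheimer's disease.

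The hairpin is shown because both knockdown effects rest on this 1 target, at chr12:6959963-6959983 on the plus strand of GRCh38. It was found in 7 annotated transcripts of PTPN6 and lies in the coding sequence of 3 of them, in exon 12 of 16.
PTPN6 hairpin target: cgacatgctcatggagaacat

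Library totals were 3318001 to 6269304 counts in wild type and 2024032 to 3749258 in the knockout, so depth was mostly lower in the knockout. CD33KO_shCTRL replicate 2 and WT_shCTRL replicate 6 lay apart from their groups more often than the other libraries among the genes described, and without them 3662 and 3671 genes had a called interaction, against 3717 with all libraries. Levels are given as CPM, counts relative to the TMM-scaled total of the library. Where libraries are listed, the lowest, median and highest value stand for a group of 6, and all 5 values are given for CD33KO_shPTPN6. Mean ± SD is over the same libraries (n = 6, and n = 5 for CD33KO_shPTPN6). Macrophage genes were counted in all 23 libraries, with CD14 at 235 to 1430 CPM, TYROBP at 329 to 1290 CPM and CD68 at 32.5 to 58.7 CPM. The macrophage gene LYZ ranged from 2.14 to 256 CPM and was lowest in the knockout libraries. Of defining markers of other cells, the T cell gene CD3E had counts in 4 libraries and the epithelial gene EPCAM reached 0.532 CPM. Other such markers were counted in all 23 libraries. Among them were the epithelial gene CDH1 at 14.8 to 92 CPM and the fibroblast gene COL1A1 at 5.72 to 42.5 CPM. The erythroid gene HBB stood at 3.07 to 29.5 CPM. The leading 3 principal components held 47.9, 25.7 and 5.48% of the variance. Of the sum of squares between group means over all tested genes, 60.7% lay in genotype, that is between the 2 lines, 30.9% in the hairpin and 8.35% in the interaction.

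The targeted genes come first, since they check the labels. CD33 (ENSG00000105383, chromosome 19, 51225064 to 51243860, plus strand) measured 39.7, 46.3 and 48.5 CPM across WT_shCTRL and 81.3, 88 and 94.9 CPM across WT_shPTPN6. In the knockout, CD33 stood at 16.2, 20.9 and 22.5 CPM with the empty vector and at 23.7, 23.8, 15.7, 25.3 and 29 CPM with the hairpin. Every wild-type library with the hairpin lay above every one without it, whereas the knockout groups overlapped. The interaction of CD33 was -0.75 ± 0.15 (log2 ± SE; by edgeR's quasi-likelihood test the adjusted p = 3.32e-05). Reads at the 3′ end of an edited gene need not lie in the edited part, so these counts do not measure CD33 protein.

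PTPN6 (ENSG00000111679, chromosome 12, 6946468 to 6961316, plus strand) was counted at 35.8, 45.3 and 52.4 CPM across WT_shCTRL and, with the hairpin, at 8.73, 10.7 and 12.8 CPM across WT_shPTPN6. With the empty vector the knockout had 32.6, 37.5 and 44.1 CPM of PTPN6, and with the hairpin 4.94, 7.31, 7.63, 11.9 and 5.32 CPM. Both hairpin groups lay below their controls in every library. PTPN6 fell by 2.08 in wild type and by 2.37 in the knockout on the log2 scale, and its interaction was -0.29 ± 0.22 (edgeR adjusted p = 0.355). On the linear CPM scale the drop was 3.74 CPM smaller in the knockout, a difference of the opposite sign. A difference in the strength of the knockdown was therefore not detected at this depth, although 79 counts over the 5 double-deficient libraries leave it imprecise.

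The hairpin had different effects in the 2 lines for 3717 of 13098 genes (28.4%, edgeR adjusted p under 0.05). The interaction was higher for 1900 genes (14.5%) and lower for 1817 (13.9%), and it reached 2-fold for 1001 genes (7.64%), 569 higher (4.34%) and 432 lower (3.3%). Over all tested genes the median interaction was 0.004, its median size 0.283, and the 5th and 95th percentiles were -0.92 and 1.07 on the log2 scale. In wild type the hairpin changed 7941 genes (60.6%), of which 3957 rose (30.2%) and 3984 fell (30.4%), 1838 of them by 2-fold or more (14%). In the knockout it changed 5512 genes (42.1%), of which 2685 rose (20.5%) and 2827 fell (21.6%), 1147 by 2-fold or more (8.76%). Hairpin and control libraries did not overlap for 4904 genes in wild type (37.4%) and for 3171 in the knockout (24.2%). Depth was mostly lower in the knockout, and these counts within each line were not recomputed at equal depth.

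The knockdown effects in the 2 lines share no library, and across the 13098 genes they had a Pearson r of 0.59 and a Spearman rho of 0.59, as a description, since genes are not independent. Among the 1838 genes changed 2-fold or more in wild type, the median ratio of the knockout effect to the wild-type effect was 0.45. Among the 1147 genes changed 2-fold or more in the knockout, the median ratio of the wild-type effect to the knockout effect was 0.76. In each case the genes were chosen by the effect in the denominator, so the ratios are a description with no test. Of the 3717 called genes, 3570 had an interaction of the same sign on the linear CPM scale, and 945 of the 1001 genes of 2-fold or more.

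**Figure D1:**
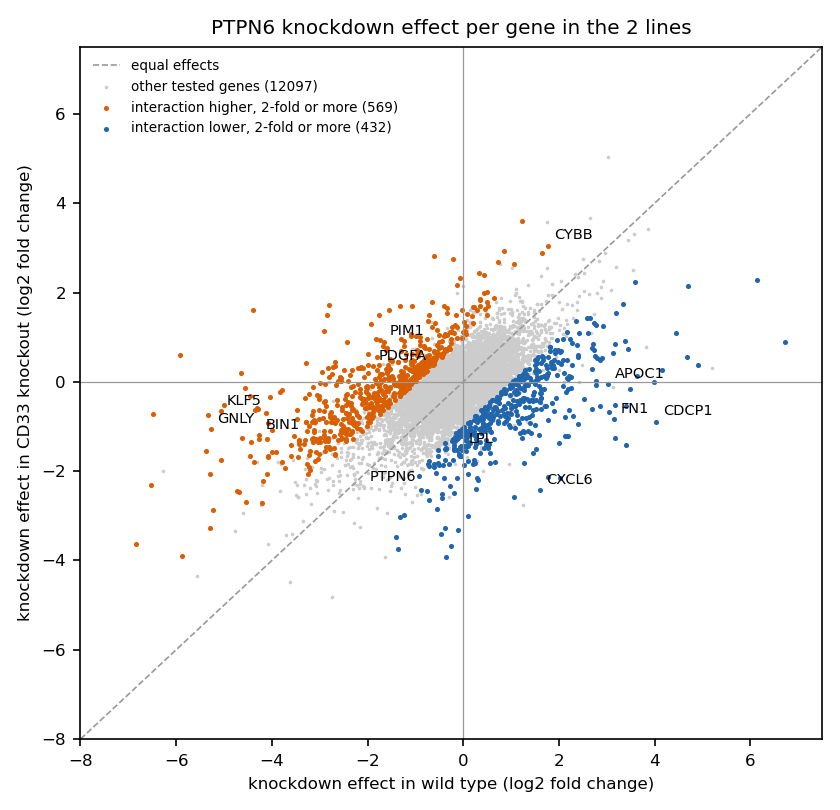
Each point is 1 of 13098 tested genes, with the log2 fold change of PTPN6 knockdown in wild type on the x axis and in the CD33 knockout on the y axis; orange marks the 569 genes with a higher and blue the 432 with a lower interaction of at least 2-fold. The coloured points spread mainly along the horizontal axis, and PTPN6 itself lies near the dashed line of equal effects.

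The called genes fell into 11 response patterns. The most frequent were genes that the hairpin lowered in wild type with no call in the knockout (753 genes, 20.3% of those called) and genes that it raised in wild type with no call in the knockout (744, 20%). Another 466 genes fell in both lines and more in wild type (12.5%), and 345 rose in both and more in wild type (9.28%). Patterns led by the knockout were rarer: 340 genes fell only past the threshold there (9.15%), 267 rose only past the threshold there (7.18%), 178 rose in both and more in the knockout (4.79%) and 149 fell in both and more in the knockout (4.01%). Opposite directions were called for 203 genes that fell in wild type and rose in the knockout (5.46%) and 199 that rose in wild type and fell in the knockout (5.35%). The remaining 73 genes (1.96%) were called in neither line. The split by pattern rests on calls within each line, which the lower depth of the knockout makes harder to reach there. A call in 1 line alone is not by itself a difference between lines, but each of these genes passed the test of the difference. The counts by gene list that follow are to be read against the 14.5% of all tested genes with a higher and the 13.9% with a lower interaction.

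**Figure D2:**
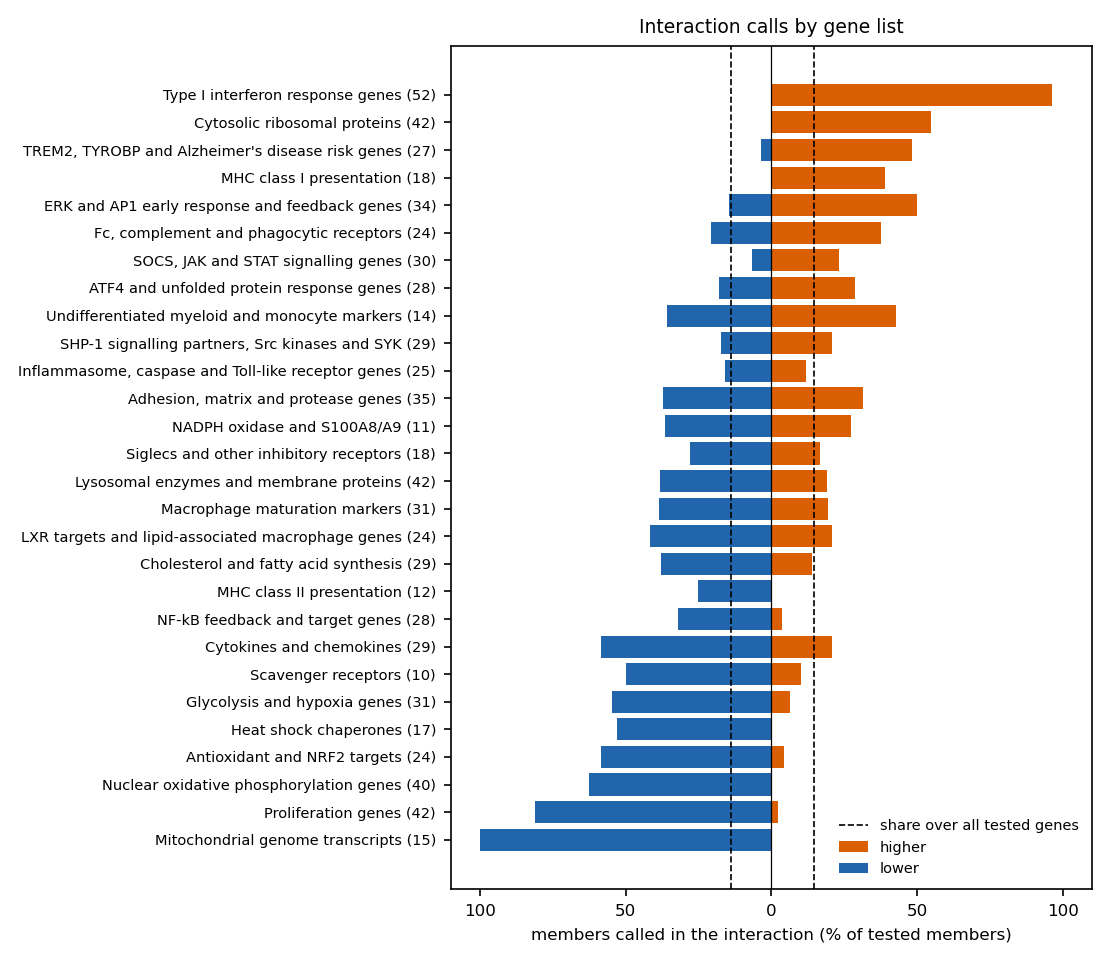
Bars give the percentage of the tested members of 28 gene lists whose interaction was called higher (orange, to the right) or lower (blue, to the left), with the number of tested members in brackets; dashed lines mark the shares over all tested genes, 14.5% higher and 13.9% lower. Type I interferon response genes reach furthest to the right, and mitochondrial genome transcripts and proliferation genes furthest to the left.

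Type I interferon response genes mostly responded less to the hairpin in the CD33 knockout than in wild type. These are antiviral genes that interferon signalling switches on through the interferon-stimulated response element (ISRE), and resting macrophages keep them at a basal level through low tonic interferon. In wild type all 52 members fell (30.4% of all tested genes fell), with a median of -1.75 log2. In the knockout 19 fell, 3 rose and 30 did not pass the test (21.6% and 20.5% of all tested genes), with a median of -0.19. The interaction was higher for 50 of 52 members (14.5% of all tested genes), 40 of them 2-fold or more, and its median was 1.41 against 0.004 over all tested genes. With the empty vector 49 of 52 were lower in the knockout than in wild type (28.4% of all tested genes) at a median of -0.99, while with the hairpin 38 were higher (29%) and 5 lower (27.5%) at a median of 0.45.

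The promoters of ISG15 and IFITM3 are shown because these genes stand for the group and hold the motif. In RefSeq on GRCh38.p14, the 200 bases before the start lie at chr1:1013297-1013496 on the plus strand for ISG15 and at chr11:320861-321060 on the minus strand for IFITM3. Capitals mark matches to the motif GAAA, any 2 bases, GAAA, searched on both strands; the 2 matches of ISG15 overlap each other, and those of IFITM3 do not.
ISG15 promoter: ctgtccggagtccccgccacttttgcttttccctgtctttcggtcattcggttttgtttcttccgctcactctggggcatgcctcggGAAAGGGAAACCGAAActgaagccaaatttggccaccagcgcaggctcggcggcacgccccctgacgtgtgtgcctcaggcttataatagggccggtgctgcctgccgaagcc
IFITM3 promoter: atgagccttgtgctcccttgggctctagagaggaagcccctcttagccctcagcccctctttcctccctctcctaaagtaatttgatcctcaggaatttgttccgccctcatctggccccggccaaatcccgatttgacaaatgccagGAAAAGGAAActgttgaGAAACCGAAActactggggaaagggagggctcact

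In the 250 bases before the start, 24 of the 41 interferon list members found in the promoter table held this motif (58.5%), against 839 of 27305 promoters in all (3.07%). The share was 240 of 9962 for promoters of tested genes (2.41%). Among tested genes it stood in 60 of 1456 promoters of genes with a higher interaction (4.12%), in 30 of 1416 with a lower one (2.12%) and in 150 of 7090 that were not called (2.12%). The 60 include members of the interferon list, of which 50 of 52 were called higher. The share without them was not computed. A match is a description of letters and not a binding site.

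IFITM3, a membrane protein that blocks virus entry, measured 657, 742 and 810.2 CPM across WT_shCTRL and 172, 204 and 235 CPM across WT_shPTPN6. The knockout had 249.5, 281 and 300.2 CPM of IFITM3 with the empty vector and 273, 282, 285, 302 and 312 CPM with the hairpin. The wild-type groups were far apart, while the 2 knockout groups lay between them and overlapped each other. The interaction of IFITM3 was 1.9 ± 0.08 (edgeR adjusted p = 1.31e-32); its near copy IFITM2 shares sequence with it, so the split of counts between them is uncertain.

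ISG15, a ubiquitin-like modifier, measured 296, 312 and 421 CPM across WT_shCTRL and 48.2, 67.8 and 79.8 CPM across WT_shPTPN6. ISG15 in the knockout stood at 164, 176 and 189 CPM with the empty vector and at 137, 118, 151, 141 and 157 CPM with the hairpin. It fell in both lines without overlap, with a far smaller step in the knockout (interaction 2.02 ± 0.15, edgeR adjusted p = 7.02e-10). RSAD2, the antiviral enzyme viperin, was counted at 45.8, 49.9 and 58 CPM across WT_shCTRL and, with the hairpin, at 3.91, 6.67 and 8.09 CPM across WT_shPTPN6. Its knockout libraries gave 9.17, 11.7 and 17.2 CPM with the empty vector and 10.9, 11, 19.3, 8.25 and 18.8 CPM with the hairpin. RSAD2 was lowered in every wild-type library with the hairpin, but its knockout groups overlapped (interaction 3.17 ± 0.24, edgeR adjusted p = 4.52e-22).

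IFI27, a small mitochondrial protein and a common marker of interferon exposure, had the largest interaction of the list at 3.31 ± 0.25 (edgeR adjusted p = 1.92e-18). Its means were 135 ± 18.9 CPM in WT_shCTRL and 4.02 ± 0.909 CPM in WT_shPTPN6, against 35.6 ± 4.7 and 10.5 ± 3.55 CPM in the knockout. Adding the separate effects on the log2 scale would put IFI27 at 1.06 CPM in CD33KO_shPTPN6. The RNA sensor RIGI (2.17 ± 0.17), the nucleotide kinase CMPK2 (3.01 ± 0.25), the ubiquitin ligase TRIM22 (2.46 ± 0.20) and the transcription factor IRF7 (1.5 ± 0.18) also had higher interactions. The 3 members that fell in wild type and rose in the knockout (203 of all 13098 tested genes did so) were PARP12, LGALS3BP and SP100.

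The other 2 members had no called interaction. BST2, the tethering factor that holds budding virus at the cell surface, measured 466, 511 and 573 CPM across WT_shCTRL and 227, 239.9 and 277 CPM across WT_shPTPN6. In the knockout BST2 stood at 389, 398 and 415 CPM with the empty vector and at 184, 136, 233, 188 and 211 CPM with the hairpin. It fell without overlap and by 1.07 log2 in each line, and its interaction was 0.0 ± 0.11 (edgeR adjusted p = 0.995). IRF9, a transcription factor of the interferon response, had an interaction of 0.75 ± 0.31 (edgeR adjusted p = 0.0805).

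**Figure D3:**
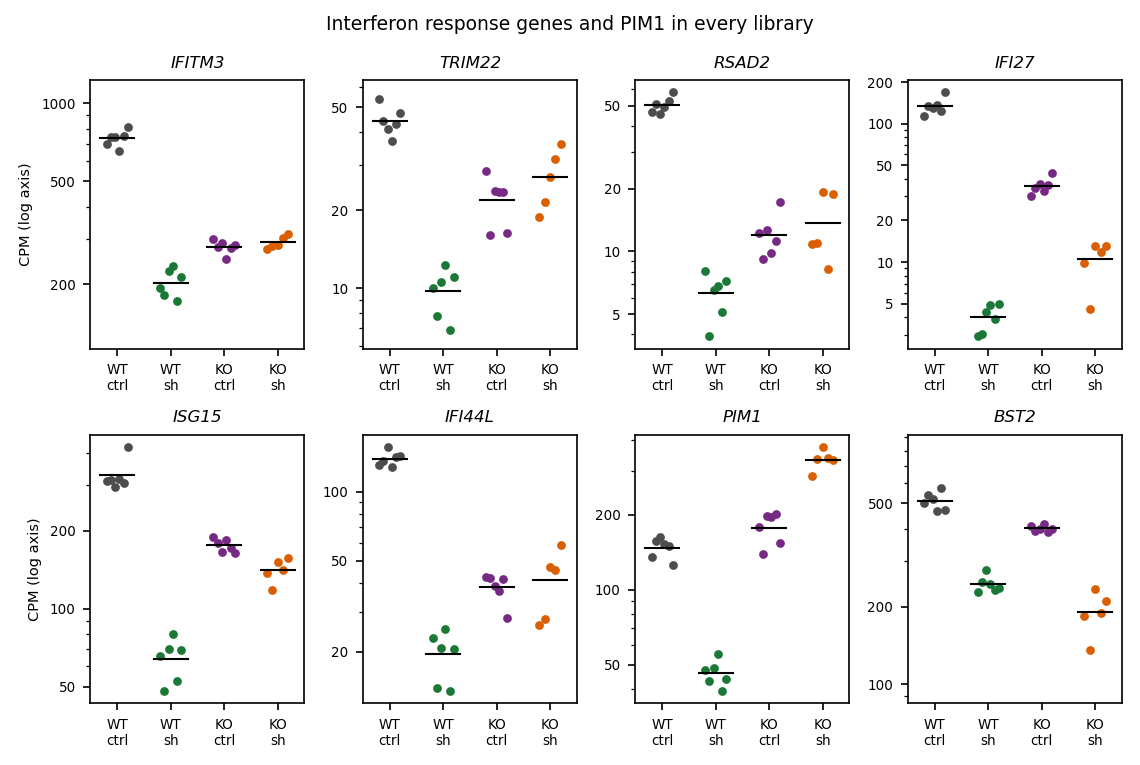
CPM of 7 interferon list genes and of the kinase gene PIM1 in every library, on log axes, with wild type (WT) and CD33 knockout (KO), empty vector (ctrl) and PTPN6 hairpin (sh); points are libraries and lines group means. IFITM3 drops from a mean of 733 to 204 CPM in wild type while its knockout groups overlap, whereas BST2 drops in both lines.

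Antigen presentation genes that interferon also controls showed smaller interactions. Of 18 tested MHC class I genes 7 had a higher interaction and none a lower one (13.9% of all tested genes lower; 14.5% higher), with a median of 0.13. HLA-E, a ligand of natural killer receptors, stood at 208 ± 11.6 CPM in WT_shCTRL, 96.5 ± 7.11 CPM in WT_shPTPN6, 394 ± 17.2 CPM in CD33KO_shCTRL and 382 ± 20.9 CPM in CD33KO_shPTPN6 (interaction 1.06 ± 0.07, edgeR adjusted p = 2.56e-24). HLA-B (0.58 ± 0.06) and B2M (0.54 ± 0.07) had higher interactions too, though HLA genes share sequence and their counts can be split between them. MHC class II genes had no higher and 3 lower interactions of 12 (5 without WT_shCTRL replicate 4), among them CD74, the invariant chain, at -0.53 ± 0.09.

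Proliferation genes showed the reverse order of the lines, a larger fall in the knockout. These genes of DNA replication and mitosis are kept active by E2F factors and decline when THP1 cells stop dividing during PMA differentiation. In wild type 24 of 42 fell and 2 rose (30.4% and 30.2% of all tested genes), with a median of -0.28 log2. In the knockout 41 of 42 fell and none rose (21.6% and 20.5%), with a median of -1 log2. The interaction was lower for 34 members (13.9% of all tested genes) and higher for 1, with a median of -0.76. HMGB2 was that 1 higher member (0.3 ± 0.11, edgeR adjusted p = 0.0312). That call was lost with no filter, with every library thinned to the lowest total, and without replicate 2, 3 or 5 of WT_shCTRL, 1 or 4 of WT_shPTPN6, 2, 3, 4 or 6 of CD33KO_shCTRL, or 1 or 4 of CD33KO_shPTPN6.

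RRM2, the subunit of ribonucleotide reductase that limits the supply of DNA building blocks, was counted at 39, 45.2 and 49.3 CPM across WT_shCTRL and, with the hairpin, at 39.9, 48.1 and 57.6 CPM across WT_shPTPN6. RRM2 in the knockout stood at 49.6, 57.2 and 66.5 CPM with the empty vector and at 23.7, 20.1, 17.5, 18.6 and 23.7 CPM with the hairpin. The 3 other groups overlapped or adjoined, and every CD33KO_shPTPN6 library lay below them (interaction -1.53 ± 0.15, edgeR adjusted p = 5.71e-16). TOP2A, the topoisomerase that untangles chromosomes, measured 275, 307 and 328 CPM across WT_shCTRL and 186, 203 and 226 CPM across WT_shPTPN6. Its knockout values were 268, 302 and 327 CPM with the empty vector and 106, 116, 112, 94.3 and 104 CPM with the hairpin. With the empty vector the 2 lines held TOP2A at overlapping levels, and with the hairpin the knockout was lower in every library (interaction -0.9 ± 0.08, edgeR adjusted p = 9.56e-18).

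CDC20, the activator of the anaphase-promoting complex, started from unequal levels, 279.7 ± 10.2 CPM in WT_shCTRL and 474 ± 28.9 CPM in CD33KO_shCTRL, and ended at 118 ± 7.39 and 107 ± 6.71 CPM with the hairpin (interaction -0.9 ± 0.08, edgeR adjusted p = 2.25e-18). MKI67, which encodes the proliferation marker Ki-67, was at 109.6 ± 6.09, 91.3 ± 9.15, 98.6 ± 10.3 and 45 ± 7.74 CPM in WT_shCTRL, WT_shPTPN6, CD33KO_shCTRL and CD33KO_shPTPN6 (interaction -0.87 ± 0.11, edgeR adjusted p = 1.48e-10). CCNE1, the cyclin of the entry into S phase, rose in wild type by 0.55 and fell in the knockout by 1.09 on the log2 scale. The mitotic kinase PLK1 (-1.17 ± 0.21), the checkpoint kinase BUB1B (-1.56 ± 0.24), the survival protein BIRC5 (-1.3 ± 0.14) and the replication licensing factor CDC6 (-1.17 ± 0.17) had interactions of more than 2-fold. The tubulin gene TUBB (0.0 ± 0.07) and the kinetochore gene CENPF (-0.11 ± 0.11) were not called. In the 250 bases before the start, 8 of 33 members in the promoter table (24.2%) held an E2F motif, TTTGGCGC or TTTCCCGC on either strand, against 1.96% of all 27305 promoters and 3.16% of those of tested genes. By interaction call the share was 3.37% for genes with a higher one, 3.81% with a lower one and 2.99% for those not called. Genes with a lower one include most members of this list, and the share without them was not computed.

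Cytokine and chemokine genes, the signals by which macrophages recruit and activate other cells, more often rose with the hairpin in wild type and fell with it in the knockout. With the empty vector 24 of the 29 tested members were higher in the knockout than in wild type (28.3% of all tested genes), at a median of 3.39 log2. Of the 29, 16 rose and 7 fell in wild type (30.2% and 30.4% of all tested genes), with a median of 0.44. In the knockout 5 rose and 14 fell (20.5% and 21.6%), with a median of -0.21. The interaction was lower for 17 (13.9% of all tested genes) and higher for 6 (14.5%), with 13 of at least 2-fold and a median of -0.72. Of the 17, 7 rose in wild type and fell in the knockout, namely IL1RN, CXCL1, CXCL2, CXCL3, CXCL5, CCL2 and CCL5. Over all 13098 tested genes 199 did so.

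The promoters of CXCL1 and CXCL5, neutrophil attractants of the same gene cluster, are shown because both genes rose in wild type, fell in the knockout and hold an NF-kB motif. In RefSeq on GRCh38.p14 the 200 bases before the start lie at chr4:73869193-73869392 on the plus strand for CXCL1 and at chr4:73998678-73998877 on the minus strand for CXCL5. Capitals mark the motif GGG, any 2 bases, TTTCC; the form that ends in TTCCC was searched as well, both on either strand.
CXCL1 promoter: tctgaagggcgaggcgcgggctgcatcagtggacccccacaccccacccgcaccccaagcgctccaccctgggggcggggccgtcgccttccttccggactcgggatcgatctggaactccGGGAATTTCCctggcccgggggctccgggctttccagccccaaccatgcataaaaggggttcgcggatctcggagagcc
CXCL5 promoter: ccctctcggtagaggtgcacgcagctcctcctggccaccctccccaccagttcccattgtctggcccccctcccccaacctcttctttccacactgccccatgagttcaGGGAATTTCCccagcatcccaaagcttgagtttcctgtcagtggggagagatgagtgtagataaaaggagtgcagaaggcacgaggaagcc

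Such a motif stood in the 250 bases before the start of 8 of 20 list members in the promoter table (40.0%), against 960 of 27305 promoters (3.52%). Among promoters of tested genes 435 of 9962 held it (4.37%). By interaction call, 78 of 1416 promoters of genes with a lower one (5.51%), 51 of 1456 with a higher one (3.50%) and 306 of 7090 not called (4.32%) held it. The 78 include list members such as CXCL1 and CXCL5, and the share without the list was not computed.

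CXCL5 was counted at 0.409, 0.608 and 2.29 CPM across WT_shCTRL and, with the hairpin, at 1.37, 1.62 and 3.23 CPM across WT_shPTPN6, near the limit of detection. For CXCL5 the knockout libraries gave 32.4, 39.8 and 45.3 CPM with the empty vector and 4.45, 8.68, 6.73, 5.67 and 6.95 CPM with the hairpin. All knockout libraries exceeded all wild-type libraries, and within the knockout the hairpin groups did not overlap (interaction -3.64 ± 0.40, edgeR adjusted p = 3.41e-13). CXCL1 measured 3.68, 4.31 and 5.85 CPM across WT_shCTRL and 5.12, 6.15 and 7.22 CPM across WT_shPTPN6. In knockout libraries CXCL1 stood at 117, 148 and 152 CPM with the empty vector and at 62.7, 48, 47.6, 50.5 and 47 CPM with the hairpin. The hairpin groups overlapped in wild type and were apart in the knockout (interaction -1.92 ± 0.20, edgeR adjusted p = 9.84e-15); CXCL1, CXCL2 and CXCL3 are near copies, and their counts can be split between them.

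CCL22, a chemokine for regulatory T cells, was counted at 0.466, 2.29 and 3.28 CPM across WT_shCTRL and, with the hairpin, at 0.819, 2.01 and 4.73 CPM across WT_shPTPN6. CCL22 in the knockout stood at 61.6, 66 and 78.8 CPM with the empty vector and at 6.42, 8.23, 10.3, 10.8 and 6.54 CPM with the hairpin. The wild-type groups overlapped, and in the knockout every library with the hairpin was lower (interaction -3.12 ± 0.36, edgeR adjusted p = 9.52e-12). CCL2, the monocyte attractant, measured 6.45, 7.91 and 9.59 CPM across WT_shCTRL and 16.1, 21.1 and 28.1 CPM across WT_shPTPN6. With the empty vector CCL2 was at 44.5, 62.1 and 65.2 CPM in the knockout, and with the hairpin at 42, 35.2, 34.1, 35.6 and 43.8 CPM. It rose in wild type and fell in the knockout, in both cases without overlap (interaction -2.08 ± 0.17, edgeR adjusted p = 1.20e-19).

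IL1RN, the interleukin 1 receptor antagonist, was at 327 ± 16.2, 354 ± 23, 2104 ± 86.4 and 1143 ± 82.2 CPM in WT_shCTRL, WT_shPTPN6, CD33KO_shCTRL and CD33KO_shPTPN6 (interaction -1.0 ± 0.07, edgeR adjusted p = 4.57e-25). IL1B, interleukin 1 beta itself, rose in both lines, by 1.43 in wild type and by 0.94 in the knockout on the log2 scale. Its interaction was -0.49 ± 0.08 on the log2 scale but 2547 CPM on the linear scale, from 3340 ± 212 to 6408 ± 296 CPM against 306 ± 24.1 to 827 ± 96.8 CPM in wild type. TNF, the founding member of its cytokine family, rose in both lines and had an interaction of -0.1 ± 0.17 (edgeR adjusted p = 0.711). The macrophage growth factor CSF1 (-1.28 ± 0.14) and the interleukin 23 subunit IL23A (-1.4 ± 0.16) had lower interactions, and the interferon-induced chemokine CXCL10 (1.61 ± 0.38) and the anti-inflammatory TGFB1 (0.64 ± 0.12) higher ones. CCL1, a T cell attractant, had 1.48 ± 0.20 on the log2 scale but -80.5 CPM on the linear scale.

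NF-kB feedback and target genes, which the factor behind many inflammatory receptors switches on, showed a smaller median interaction. Of 28 tested members 9 had a lower and 1 a higher interaction (2 without WT_shPTPN6 replicate 1), against 13.9% and 14.5% of all tested genes, with a median of -0.21. BIRC3, an inhibitor of apoptosis that NF-kB induces, rose in wild type from 10.4 ± 2.68 to 18.5 ± 4.25 CPM and fell in the knockout from 112 ± 12 to 65.6 ± 4.32 CPM (interaction -1.64 ± 0.17, edgeR adjusted p = 1.55e-12). NFKB2 (-0.9 ± 0.18), REL (-0.5 ± 0.12) and BCL2A1 (-0.6 ± 0.10) were lower too, whereas the inhibitor NFKBIA (-0.17 ± 0.08) and RELA (-0.05 ± 0.10) were not called. TRAF1, an adaptor of TNF receptors, was the 1 higher member (0.7 ± 0.25, edgeR adjusted p = 0.0216, and -4.24 CPM on the linear scale), and its call was lost with every library thinned to the lowest total and without WT_shPTPN6 replicate 3, WT_shPTPN6 replicate 5 or CD33KO_shPTPN6 replicate 1.

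**Figure D4:**
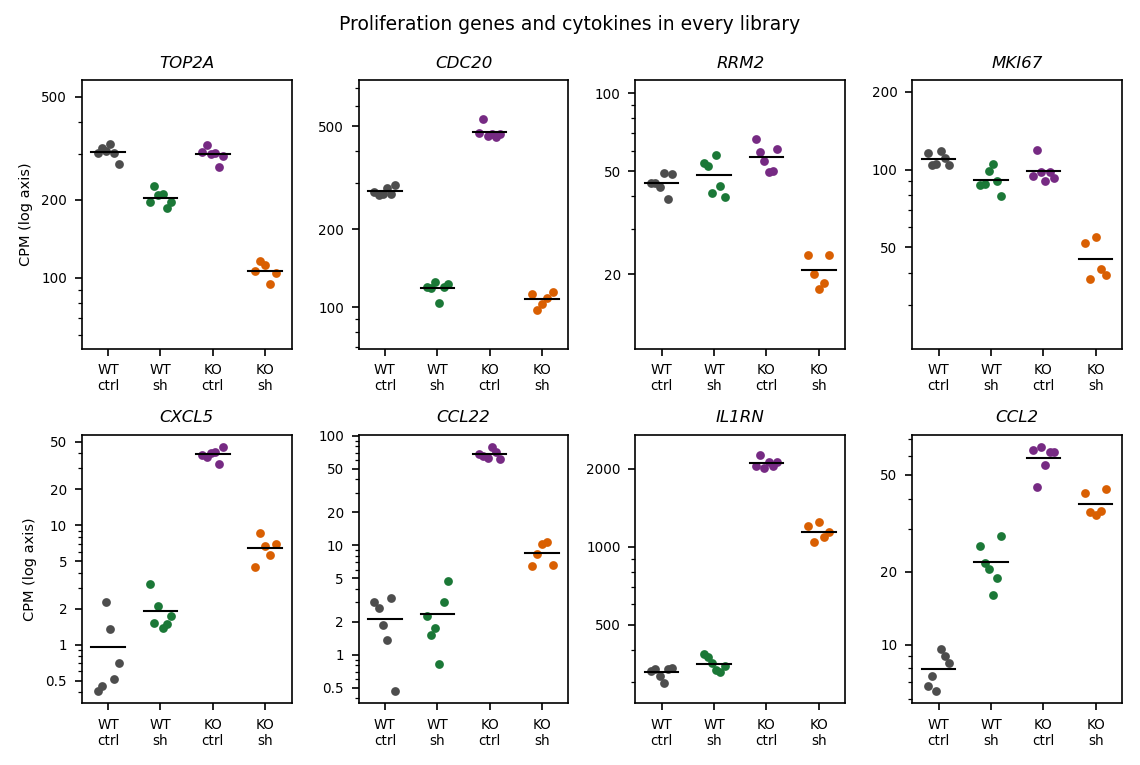
CPM of 4 proliferation genes and 4 cytokine genes in every library, on log axes, with groups named as wild type (WT) or knockout (KO) and empty vector (ctrl) or hairpin (sh); points are libraries and lines group means. RRM2 and MKI67 are lowest in the knockout with the hairpin, and CXCL5 and CCL22 are highest in the knockout with the empty vector.

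Transcripts of the mitochondrial genome, which encode subunits of the respiratory chain and the mitochondrial ribosomal RNAs, rose with the hairpin in wild type and mostly did not pass the test in the knockout. All 15 rose in wild type (30.2% of all tested genes rose), with a median of 0.62 log2. In the knockout 3 rose and 1 fell (20.5% and 21.6% of all tested genes), with a median of -0.02. The interaction was lower for all 15, with a median of -0.63. MT-ND5, a subunit of complex I, was counted at 568, 666 and 759 CPM across WT_shCTRL and, with the hairpin, at 1088, 1146 and 1293 CPM across WT_shPTPN6. MT-ND5 in the knockout stood at 614, 672 and 701 CPM with the empty vector and at 612, 609, 667, 569 and 614 CPM with the hairpin. WT_shPTPN6 stood above the 3 other groups, which overlapped (interaction -0.95 ± 0.07, edgeR adjusted p = 3.00e-20). The share of all counts on mitochondrial transcripts, a measure that also follows RNA quality, ranged over 7.85 to 8.697% in the WT_shPTPN6 libraries. Its range was 5.864 to 6.539% without the hairpin in wild type, and in the knockout 6.526 to 7.13% without and 6.359 to 6.545% with it, and its part in these results was not tested.

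Nuclear genes of oxidative phosphorylation showed the same order at smaller size. Of 40 members 29 rose and 2 fell in wild type (30.2% and 30.4% of all tested genes), with a median of 0.32. In the knockout 11 rose and 7 fell (20.5% and 21.6%), with a median of -0.02. The interaction was lower for 25 and higher for none (14.5% of all tested genes), with a median of -0.30 and no member at 2-fold. UQCRH of complex III went from 858 ± 36.2 to 1443 ± 53.8 CPM in wild type and from 687 ± 24.7 to 768 ± 28.1 CPM in the knockout (interaction -0.59 ± 0.06, edgeR adjusted p = 9.45e-14). ATP5F1B, the catalytic subunit of ATP synthase, had an interaction of -0.63 ± 0.07.

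Cytosolic ribosomal protein genes rose in both lines and somewhat more in the knockout. In wild type 41 of 42 rose (median 0.59), against 30.2% of all tested genes, and in the knockout 42 of 42 (median 0.79), against 20.5%. The interaction was higher for 23 and lower for none, with a median of 0.20 and no member at 2-fold. RPS6 went from 2047 ± 198 to 3158 ± 47.4 CPM in wild type and from 1452 ± 62.5 to 2899 ± 83.8 CPM in the knockout (interaction 0.37 ± 0.06, edgeR adjusted p = 1.23e-06). The summed share of these transcripts went from a range of 6.166 to 7.256% of all counts to 9.173 to 9.474% in wild type, and from 4.458 to 4.73% to 7.372 to 7.788% in the knockout.

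Among metabolic and stress genes, 3 lists had more lower than higher interactions, and the ATF4 list had more higher ones. Antioxidant and NRF2 targets were lower in 14 of 24 and higher in 1 (2 without CD33KO_shCTRL replicate 4), with a median of -0.38. FTL, the ferritin light chain that stores iron, rose from 1404 ± 84.7 to 3299 ± 69 CPM in wild type and from 2786 ± 45.3 to 3544 ± 112 CPM in the knockout (interaction -0.89 ± 0.06, edgeR adjusted p = 1.61e-24). GCLM, the modifier subunit of glutathione synthesis, was the 1 higher member at 0.57 ± 0.08, with -11.8 CPM on the linear scale. Glycolysis and hypoxia genes were lower in 17 of 31 and higher in 2 (median -0.31). HK2, which phosphorylates glucose, rose from 28.4 ± 2.72 to 100.1 ± 7.98 CPM in wild type and from 55.4 ± 4.2 to 95.1 ± 5.33 CPM in the knockout (interaction -1.04 ± 0.11, edgeR adjusted p = 6.69e-14). Heat shock chaperones were lower in 9 of 17 and higher in none (median -0.32), HSPH1 at -0.44 ± 0.07. Genes of the ATF4 and unfolded protein response were higher in 8 and lower in 5 of 28 (median 0.10), and higher in 5 without replicate 3 or 6 of WT_shCTRL, 2 of CD33KO_shCTRL or 3 of CD33KO_shPTPN6. ATF4 itself, the factor of the integrated stress response, fell in wild type and rose in the knockout (interaction 0.87 ± 0.07). GDF15, a stress hormone, did not pass the test in wild type (78.8 ± 2.49 and 81.1 ± 4.88 CPM) and rose in the knockout from 1235 ± 76.4 to 1966 ± 194 CPM.

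Lipid genes split into separate directions. LXR targets and lipid-associated macrophage genes were lower in 10 and higher in 5 of 24, with a median of -0.54. LPL, the lipase that frees fatty acids from lipoproteins, measured 63.1, 70.6 and 76.6 CPM across WT_shCTRL and 58.6, 68.4 and 81.7 CPM across WT_shPTPN6. LPL in the knockout stood at 432, 444 and 478 CPM with the empty vector and at 168, 151, 165, 145 and 157 CPM with the hairpin. The wild-type groups overlapped almost entirely, and the knockout groups were well apart (interaction -1.5 ± 0.08, edgeR adjusted p = 1.79e-30). FABP4, a carrier of fatty acids, followed the same order with means of 46.7, 45.1, 339 and 106 CPM (interaction -1.62 ± 0.11). APOC1, an apolipoprotein, rose in wild type from 15.8 ± 2.11 to 130.3 ± 9.62 CPM and had 33.7 ± 3.01 and 32.9 ± 5.86 CPM in the knockout, where it did not pass the test (interaction -3.08 ± 0.14, edgeR adjusted p = 9.70e-38). The matrix cytokine SPP1 (osteopontin) fell from 11790 ± 453 to 4340 ± 138 CPM in wild type and from 3891 ± 396 to 3276 ± 113 CPM in the knockout (interaction 1.19 ± 0.07). Cholesterol and fatty acid synthesis genes were lower in 11 and higher in 4 of 29 (median -0.20), with the desaturase SCD at -0.81 ± 0.09 and the sterol pathway enzyme HMGCS1 at 0.63 ± 0.09. Lysosomal genes were lower in 16 and higher in 8 of 42 (median -0.10), with the acid lipase LIPA at -0.83 ± 0.07 and the cathepsins CTSB at -0.76 ± 0.06 and CTSC at 0.99 ± 0.11.

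Early response and feedback genes of the ERK and AP1 pathway fell more often than they rose in each line. In wild type 26 of 34 fell and 7 rose (30.4% and 30.2% of all tested genes), with a median of -0.70. In the knockout 21 fell and 5 rose (21.6% and 20.5%), with a median of -0.35. Among the 34, 2 fell in wild type and rose in the knockout, and 2 did the reverse, against 203 and 199 of all 13098 tested genes. Their interaction was higher in 17 and lower in 5, with a median of 0.30. KLF6, a zinc finger factor of this early response, went from 161 ± 8.06 to 100 ± 5.24 CPM in wild type and from 109 ± 7.77 to 122 ± 7.81 CPM in the knockout (interaction 0.86 ± 0.09, edgeR adjusted p = 7.88e-15). EGR1, which serum and ERK signals induce, had an interaction of 1.41 ± 0.14 but -8.72 CPM on the linear scale. JUN, a subunit of AP1, rose in wild type from 59 ± 3.44 to 101 ± 8.66 CPM and fell in the knockout from 210 ± 10.1 to 179.5 ± 11.4 CPM (interaction -1.01 ± 0.09, edgeR adjusted p = 1.00e-18).

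Among SOCS, JAK and STAT signalling genes 7 had a higher and 2 a lower interaction of 30, with a median of -0.03; the 9 of 30 called in either direction are a share near the 28.4% of all tested genes. The 2 lower became 1 without replicate 1 or 4 of WT_shCTRL, 1, 2 or 6 of WT_shPTPN6, 3 or 5 of CD33KO_shCTRL, or 1 or 4 of CD33KO_shPTPN6. PIM1, a kinase induced by STAT factors, was counted at 126, 151 and 162 CPM across WT_shCTRL and, with the hairpin, at 39.1, 45.8 and 55.2 CPM across WT_shPTPN6. PIM1 in the knockout stood at 139, 187 and 201 CPM with the empty vector and at 287, 334, 374, 338 and 331 CPM with the hairpin. It fell in wild type and rose in the knockout, both without overlap (interaction 2.56 ± 0.12, edgeR adjusted p = 1.12e-16), and stood at a mean of 333 CPM where additive effects would give 55.8 CPM. The interferon gamma receptor chain IFNGR1 (1.04 ± 0.12) and the transducer STAT3 (0.3 ± 0.11) were higher, and the interleukin 10 receptor IL10RA (-1.27 ± 0.16) lower.

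Among 29 SHP-1 partners, Src kinases and SYK, 6 were higher and 5 lower (14.5% and 13.9% of all tested genes), with a median of 0.02, so the list as a whole gave no result of its own. The Src kinase FGR fell in wild type from 22.1 ± 2.27 to 15 ± 1.77 CPM and rose in the knockout from 109 ± 7.54 to 171 ± 10.3 CPM (interaction 1.18 ± 0.12, edgeR adjusted p = 1.62e-14). The adaptor DOK2 rose in both lines, more in wild type, and had -0.96 ± 0.12. Of 18 Siglecs and other inhibitory receptors 3 were higher and 5 lower (14.5% and 13.9% of all tested genes) with a median of -0.04, and the lower count was 3 without CD33KO_shCTRL replicate 2, CD33KO_shPTPN6 replicate 1 or CD33KO_shPTPN6 replicate 5. SIGLEC1, which interferon induces, fell in wild type from 39.7 ± 2.37 to 12.7 ± 3.11 CPM and had 7.42 ± 2.07 and 5.41 ± 2.33 CPM in the knockout (interaction 1.17 ± 0.29, edgeR adjusted p = 7.89e-04). SIRPA, the CD47 receptor that binds SHP-1, rose in both lines and had -0.39 ± 0.08, and LILRB4 had -1.45 ± 0.35.

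Of 27 TREM2, TYROBP and Alzheimer's disease risk genes 13 had a higher interaction and 1 a lower one, with a median of 0.43. TREM2, the lipid-sensing receptor of microglia, was at 608 ± 41.2, 392 ± 13.9, 211 ± 12.3 and 184 ± 12.2 CPM in WT_shCTRL, WT_shPTPN6, CD33KO_shCTRL and CD33KO_shPTPN6 (interaction 0.44 ± 0.07, edgeR adjusted p = 6.49e-07). Its adaptor TYROBP had 0.51 ± 0.07, the inositol phosphatase INPP5D 0.43 ± 0.08 and the protease ADAM17 1.04 ± 0.06. BIN1, a membrane-bending protein, measured 239.7, 262 and 281 CPM across WT_shCTRL and 12, 13.2 and 16.6 CPM across WT_shPTPN6. BIN1 in the knockout stood at 12.7, 18.9 and 22.9 CPM with the empty vector and at 7.41, 7.31, 9.43, 7.73 and 8.59 CPM with the hairpin. WT_shCTRL stood far above the other groups, and BIN1 fell in both lines (interaction 3.08 ± 0.22, edgeR adjusted p = 3.76e-23). The lower member was ADAMTS1, a matrix protease, at -2.35 ± 0.19. The 1 lower member became 2 without replicate 4 or 5 of WT_shCTRL, 4 or 5 of WT_shPTPN6, 1, 2 or 6 of CD33KO_shCTRL, or 1 of CD33KO_shPTPN6. SPI1, the myeloid factor PU.1 (-0.02 ± 0.10), and SORL1 (-0.25 ± 0.25) were not called.

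Genes of phagocytosis and the oxidative burst did not share 1 direction. Of 24 Fc, complement and phagocytic receptors 9 were higher and 5 lower (median -0.02). FCER1G, the shared Fc receptor chain, fell in wild type from 1207 ± 46.4 to 924 ± 81.4 CPM and rose in the knockout from 426 ± 28.8 to 606 ± 16 CPM (interaction 0.89 ± 0.07, edgeR adjusted p = 2.31e-21). ITGAM, the complement receptor chain CD11b, rose in wild type from 62.4 ± 5.35 to 177 ± 10.3 CPM and had 59.4 ± 1.3 and 60.6 ± 6.23 CPM in the knockout (interaction -1.47 ± 0.10, edgeR adjusted p = 9.63e-24). Among scavenger receptors 5 of 10 were lower and 1 higher (median -0.42), with CD36 at -1.27 ± 0.07, OLR1 at -1.75 ± 0.24 and MSR1 at 1.17 ± 0.23.

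Of 11 genes of the NADPH oxidase, its partners and S100A8 and S100A9, 3 were higher and 4 lower (median -0.13). CYBB, the catalytic subunit that makes superoxide, was counted at 159.6, 176 and 180.5 CPM across WT_shCTRL and, with the hairpin, at 558, 588 and 618 CPM across WT_shPTPN6. CYBB in the knockout stood at 17.6, 19.6 and 26.1 CPM with the empty vector and at 166, 159, 186, 148 and 169 CPM with the hairpin. It rose in both lines without overlap, by 1.77 log2 in wild type and 3.05 log2 in the knockout. The direction of the difference depends on the scale, 1.29 ± 0.10 on the log2 scale (edgeR adjusted p = 1.23e-20) and -271 CPM on the linear scale. S100A8, a calcium-binding alarmin, had -2.02 ± 0.09.

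Adhesion, matrix and protease genes had 11 higher and 13 lower interactions of 35 (median -0.17), with 12 of 2-fold or more. Among the 35, 2 rose in wild type and fell in the knockout and 1 did the reverse, against 199 and 203 of all 13098 tested genes. FN1, the matrix protein fibronectin, measured 24.1, 32.2 and 36.1 CPM across WT_shCTRL and 248, 279.6 and 301 CPM across WT_shPTPN6. FN1 in the knockout stood at 159, 216 and 229.9 CPM with the empty vector and at 130, 108, 112, 107 and 121 CPM with the hairpin. It rose in wild type and fell in the knockout, without overlap in either (interaction -3.99 ± 0.11, edgeR adjusted p = 1.74e-37), and additive effects would have put it at 1837 CPM. A gene outside this list, CDCP1, also had a large opposite response. CDCP1, a transmembrane substrate of Src kinases, was counted at 7.4, 9.29 and 10.9 CPM across WT_shCTRL and, with the hairpin, at 142, 149 and 167 CPM across WT_shPTPN6. With the empty vector the knockout had 31.3, 39.5 and 42.2 CPM of CDCP1 and with the hairpin 19.3, 21.5, 22, 23.2 and 17.2 CPM. With the hairpin every wild-type library lay above its controls and every knockout library below them (interaction -4.93 ± 0.15, edgeR adjusted p = 8.49e-54).

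PDGFA, a platelet-derived growth factor chain that is also outside the list, changed in the opposite sense. It measured 679, 721 and 728 CPM across WT_shCTRL and 187, 192 and 203 CPM across WT_shPTPN6. PDGFA in the knockout stood at 489.8, 506 and 545 CPM with the empty vector and at 645, 675, 657, 639 and 658 CPM with the hairpin. It fell in wild type and rose in the knockout, again without overlap (interaction 2.25 ± 0.06, edgeR adjusted p = 6.58e-56). The membrane protein EMP1 (1.51 ± 0.07) and the annexin partner S100A10 (1.56 ± 0.08), outside the list as well, shared this order. MMP9, a gelatinase, rose in both lines, from 387 ± 37.6 to 1874 ± 113 CPM in wild type and from 943 ± 22.8 to 1728 ± 86.4 CPM in the knockout (interaction -1.4 ± 0.07, edgeR adjusted p = 1.64e-35). The collagenase MMP1 had 3.73 ± 0.12 on the log2 scale but -10.6 CPM on the linear scale, and it overlaps WTAPP1 on the other strand.

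**Figure D5:**
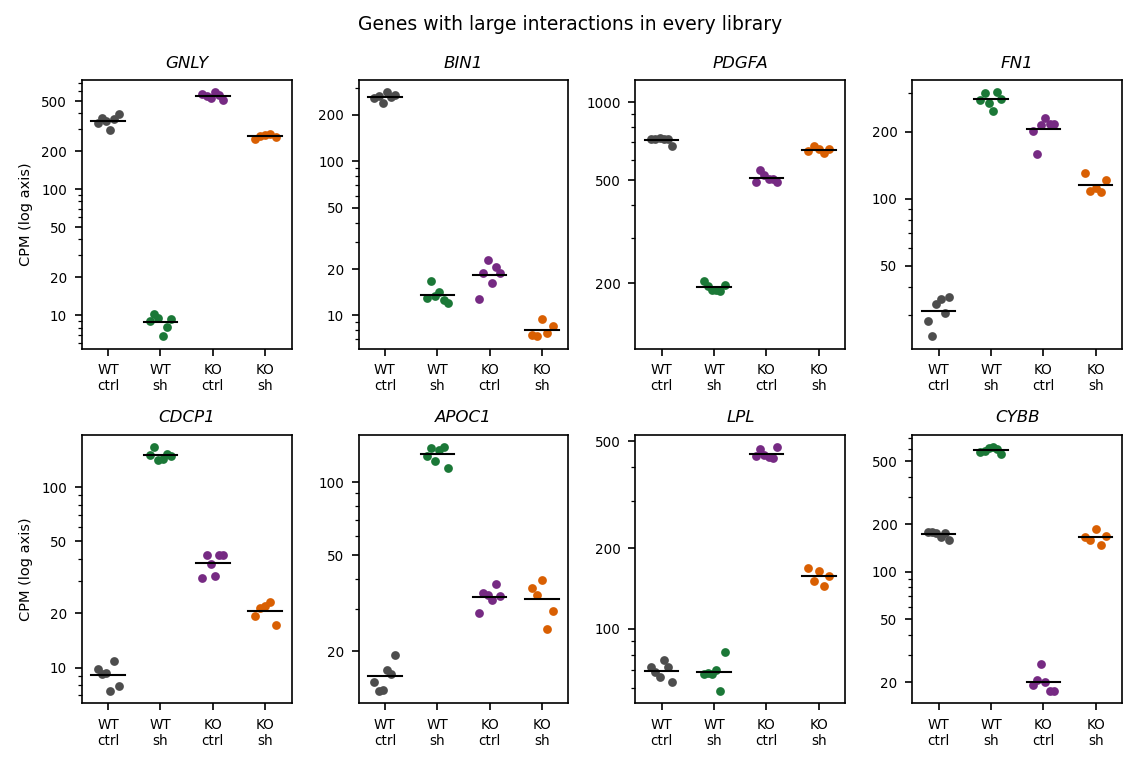
CPM of 8 genes with large interactions in every library, on log axes, with wild type (WT) or knockout (KO) and empty vector (ctrl) or hairpin (sh); points are libraries and lines group means. GNLY is low only in wild type with the hairpin, LPL is highest in the knockout with the empty vector, and FN1 and CDCP1 rise in wild type and fall in the knockout.

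Differentiation markers were mixed. Of 31 macrophage maturation markers 6 were higher and 12 lower, with a median of -0.44, and of 14 undifferentiated myeloid and monocyte markers 6 were higher and 5 lower (3 without CD33KO_shCTRL replicate 1). LYZ, lysozyme, rose in wild type from 26.1 ± 3.03 to 227 ± 23.6 CPM and had 3.49 ± 1.42 and 5.66 ± 1.95 CPM in the knockout (interaction -2.48 ± 0.31, edgeR adjusted p = 1.29e-10). FLT3, a progenitor receptor, fell in wild type and had 1.65 ± 0.22. Inflammasome, caspase and Toll-like receptor genes had 3 higher and 4 lower interactions of 25 (median -0.02), shares near those of all tested genes (14.5% and 13.9%). The adaptor MYD88 (0.72 ± 0.15) and the ligase TRAF6 (0.99 ± 0.20) were among the higher, and the lipoprotein receptor TLR2 (-0.51 ± 0.10) and the adaptor TICAM1 (-0.49 ± 0.12) among the lower.

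Within each response pattern the genes of smallest adjusted p and at least 2-fold were taken as examples. Among genes that rose only in wild type past the threshold, THBD, the thrombin receptor thrombomodulin, went from 13.2 ± 1.54 to 63 ± 7.14 CPM there and had 44.8 ± 3.57 and 40.8 ± 5.82 CPM in the knockout (interaction -2.39 ± 0.14, edgeR adjusted p = 8.12e-29). PDP1, which switches on pyruvate dehydrogenase, had -1.67 ± 0.11, and its knockout libraries exceeded all wild-type ones with either vector. Among genes that fell only in wild type past the threshold, MEF2A, a transcription factor of muscle and myeloid cells, went from 485 ± 22.6 to 184 ± 7.95 CPM and had 220.2 ± 9.63 and 208 ± 16.9 CPM in the knockout (interaction 1.32 ± 0.07, edgeR adjusted p = 7.56e-31). With the hairpin every wild-type library lay below the knockout controls, and without it every one lay above them. HEG1, an endothelial junction receptor, had 1.81 ± 0.10.

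CYP1B1, an oxidase that the aryl hydrocarbon receptor induces, rose in both lines and more in wild type, from 7.36 ± 1.51 to 161 ± 7.4 CPM against 40.6 ± 3.62 to 87.7 ± 5.99 CPM (interaction -3.34 ± 0.13, edgeR adjusted p = 3.72e-43), and it overlaps an antisense gene. BMP8B, a ligand of the bone morphogenetic protein family, fell in both and more in wild type, from 1030 ± 28.6 to 118 ± 2.73 CPM against 256 ± 8.23 to 162 ± 6.64 CPM (interaction 2.47 ± 0.07, edgeR adjusted p = 2.38e-55), and it overlaps OXCT2 on the same strand. For both genes the fold between the lines was smaller with the hairpin than without it, and of opposite sign. Knockout against wild type, CYP1B1 stood at 2.46 log2 with the empty vector and at -0.87 log2 with the hairpin. BMP8B stood at -2.01 log2 and 0.46 log2.

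Other genes responded in the knockout alone past the threshold or more strongly there. GPR84, a receptor for medium-chain fatty acids, was counted at 26.6, 29.6 and 37.6 CPM across WT_shCTRL and, with the hairpin, at 27.9, 30.4 and 39.3 CPM across WT_shPTPN6. GPR84 in the knockout stood at 28.4, 30.6 and 39.6 CPM with the empty vector and at 77.1, 88.7, 66.9, 88.7 and 73.2 CPM with the hairpin. The 3 groups other than CD33KO_shPTPN6 overlapped, and all of its libraries were higher (interaction 1.21 ± 0.14, edgeR adjusted p = 2.68e-12). CD209, the lectin DC-SIGN of dendritic cells and macrophages, showed this order with means of 15.6 ± 2.78, 20 ± 2.15, 18.9 ± 3.31 and 67.6 ± 10 CPM (interaction 1.51 ± 0.17). SLC11A1, the phagosomal metal transporter NRAMP1, rose in both lines and more in the knockout, whose controls lay below both wild-type groups (interaction 1.56 ± 0.15). NUPR1, a stress-induced chromatin protein, had 2.38 ± 0.30, and the noncoding host of miR-503, MIR503HG, 1.34 ± 0.13.

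TIMP3, a matrix-bound inhibitor of metalloproteinases, measured 126, 144 and 151 CPM across WT_shCTRL and 126, 153 and 169.8 CPM across WT_shPTPN6. TIMP3 in the knockout stood at 204, 252 and 262 CPM with the empty vector and at 65.7, 68.1, 71.4, 70.6 and 82.6 CPM with the hairpin. The wild-type groups overlapped, the knockout controls lay above both, and CD33KO_shPTPN6 lay below both (interaction -1.88 ± 0.09, edgeR adjusted p = 2.34e-34). CD70, a ligand of the TNF family, fell in both lines and more in the knockout, from 105 ± 9.0 to 36.3 ± 2.89 CPM there against 179.9 ± 16.6 to 157 ± 15.6 CPM in wild type (interaction -1.33 ± 0.11). The sodium pump subunit ATP1B1 (-1.05 ± 0.10) and the membrane protein EMP2 (-1.44 ± 0.15) shared this pattern.

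Genes with the largest interactions were often near 0 in 1 or more groups, so that their fold is imprecise. FCGBP, an IgG Fc-binding mucin-like protein, was counted at 144, 156 and 167 CPM across WT_shCTRL and, with the hairpin, at 3.28, 6.18 and 8.22 CPM across WT_shPTPN6. FCGBP in the knockout stood at 0.428, 2.38 and 3.72 CPM with the empty vector and at 2.47, 5.03, 3.14, 0.515 and 2.45 CPM with the hairpin. Only WT_shCTRL was well above 10 CPM, and the 3 other groups overlapped (interaction 4.84 ± 0.46, edgeR adjusted p = 6.52e-16). KLF5, a zinc finger factor of epithelial and smooth muscle cells, measured 61.2, 65.2 and 68 CPM across WT_shCTRL and 1.25, 1.54 and 2.91 CPM across WT_shPTPN6. KLF5 in the knockout stood at 45, 57.9 and 68.1 CPM with the empty vector and at 39, 35.7, 35.5, 37.6 and 38.4 CPM with the hairpin. It was nearly lost in wild type with the hairpin and fell by 0.65 log2 in the knockout (interaction 4.42 ± 0.19, edgeR adjusted p = 6.90e-40).

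Others at this end were HAND2 (4.6 ± 1.00), a heart and limb factor with 14 and 6 counts over the knockout groups, AKR1C2 (4.48 ± 0.49), a steroid reductase with close copies, and SLC13A3 (4.34 ± 0.45), a dicarboxylate transporter. In the other direction stood PTPN22 (-4.81 ± 0.68), a phosphatase of immune signalling with 19 and 5 counts over the knockout groups, and the chemokine CXCL6 (-4.04 ± 0.32). FCN1, a lectin of monocytes, rose in wild type from 1.48 ± 0.276 to 45.7 ± 2.18 CPM but had 2 counts in each knockout group. The interaction of FCN1, -4.54 ± 1.67 (edgeR adjusted p = 0.0302), became -2.24 without CD33KO_shCTRL replicate 1, where it was no longer called.

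Genes that serve as markers of other cells moved as well, in cultures of the 1 line THP1. Bulk counts cannot tell fewer cells that express such a gene from less of its RNA per cell. Of 6 tested lymphoid markers 2 had a higher interaction and none a lower one. GNLY, granulysin of cytotoxic lymphocytes, was counted at 294, 353 and 395 CPM across WT_shCTRL and, with the hairpin, at 6.83, 9.26 and 10.2 CPM across WT_shPTPN6. GNLY in the knockout stood at 509, 552 and 587 CPM with the empty vector and at 252, 266, 271, 273 and 260 CPM with the hairpin. WT_shPTPN6 stood far below the rest (interaction 4.22 ± 0.10, edgeR adjusted p = 1.38e-63), and the gene overlaps AC012454.1 on the other strand. TRAC, the T cell receptor alpha constant gene, had 0.71 ± 0.09. Summed lymphoid markers ranged over 613 to 745, 175 to 215, 626 to 717 and 354 to 408 CPM in WT_shCTRL, WT_shPTPN6, CD33KO_shCTRL and CD33KO_shPTPN6, while the T cell gene CD3E had 6 counts in all. Nearly all of this lymphoid sum is GNLY and TRAC. In the same order of groups, GNLY averaged 349, 8.87, 550 and 264 CPM and TRAC 313, 175, 105 and 96.2 CPM. Summed fibroblast and endothelial markers ranged over 201 to 231, 392 to 461, 454 to 509 and 741 to 801 CPM, with 1 of 8 higher and 1 lower. Most of that sum is PECAM1, an adhesion receptor that is also listed with the inhibitory receptors, at 162, 381, 368 and 708 CPM on average (interaction -0.29 ± 0.07, but 121 CPM on the linear scale). Over the 8 members 1 rose and 2 fell in each line, with medians of -0.17 in wild type and -0.33 in the knockout, and PECAM1 was the 1 that rose. The 1 higher interaction was lost without replicate 1, 3 or 4 of WT_shCTRL, 1, 2 or 6 of WT_shPTPN6, 2 or 4 of CD33KO_shCTRL, or 1, 4 or 6 of CD33KO_shPTPN6. Epithelial and HEK-293 markers summed to 50.1 to 69.7, 68 to 109, 115 to 148 and 96.9 to 127 CPM, with 1 of 4 higher and 1 lower, and erythroid and megakaryocyte markers had 1 lower of 4. The part of such markers in the other results was not tested.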

How the data were processed

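The 23 libraries are 3′ end RNA-seq (QuantSeq) from 100 ng of total RNA each, 6 in 3 groups and 5 in 1, and the values deposited by the authors are raw counts per Ensembl gene for 60617 identifiers. Per the submitters' processing notes the build was hg38, and the tools listed, without roles, are DESeq2 1.26.0, R 3.6.1, Subread 2.0.0, featureCounts, STAR 2.7.3a and bcl2fastq. The annotation, the strand setting and the handling of duplicate reads are not given in the sources used here, so antisense, overlapping and near-identical genes are uncertain. A symbol was found for 42000 identifiers (69.29%), and positions are from GENCODE release 29.

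All 23 libraries were fitted in 1 model with 4 groups by edgeR's quasi-likelihood test (edgeR 4.0.16, R 4.3.3, filterByExpr, TMM scaling, robust dispersions), and p-values were adjusted by Benjamini-Hochberg over the 13098 genes kept. A call is an adjusted p under 0.05. The contrast was tested on simulated data before use. CPM values were computed from the counts with TMM scaling. Standard errors are the log2 change divided by the square root of F. Totals of 2024032 to 6269304 counts limit low genes, and counts are reads, not molecules. Motifs were searched in RefSeq promoters of GRCh38.p14. Library pairs of 1 group differed by 1.52 to 4.07 chi-square per degree of freedom, so no column repeated the counts of another. This measure cannot tell separate cultures from separate preparations of 1 RNA.

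The alternatives were DESeq2 1.42.0, RLE scaling, total counts only, limma-voom (limma 3.58.1), no filter, a mean of at least 5 CPM, the replicate number as a block, thinning to the lowest total, leaving out each library, and the sign on the linear CPM scale. Replicate 2 of CD33KO_shPTPN6 was not analysed here.

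The members and the 32 gene lists were chosen with earlier results of these data known. The rule for named genes took CD33 and PTPN6; for each response pattern the 3 genes of smallest adjusted p among those called, at least 2-fold and at a mean of at least 5 CPM; the 5 largest interactions in each direction among the same; and, from each list, the called members of smallest adjusted p, at most 2 a direction. Some of these are left out for length, and a few genes are not reported here. Others outside the rule, among them ISG15, RSAD2, IFI27, BST2, IRF9, RRM2, MKI67, CCNE1, CXCL1, CXCL5, CCL22, IL1B, TNF and members given as not called, were chosen after their values were seen.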

Additional observations from a re-analysis of the deposited data

Results flagged for a closer look

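The knockdown effect differed between the lines for 1900 genes with a higher and 1817 with a lower interaction, by the test of the difference itself. The interaction was -0.75 for CD33, the knockout's target, and among the genes named for size it was 4.84 for FCGBP, 4.60 for HAND2, 4.48 for AKR1C2, 4.42 for KLF5 and 4.34 for SLC13A3 on the log2 scale. In the other direction the interaction was -4.93 for CDCP1, -4.81 for PTPN22, -4.54 for FCN1, -4.04 for CXCL6 and -3.99 for FN1. HAND2, PTPN22 and FCN1 rest on few counts in the knockout.

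In a group's values, 1 library lay far outside the others, judged by the gap at the end of the range (Dixon's criterion), in 41 of 536 sets of values for the genes described and for the mitochondrial and ribosomal shares (7.65%). Chance alone would mark about 1 in 20. CD33KO_shCTRL replicate 2 stood apart for 8 genes and WT_shCTRL replicate 6 for 7.

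Each range is that of the other libraries of the same group. In CD33KO_shCTRL replicate 2, ATP5F1B was 368 CPM against 394 to 406, CCNE1 was 17 CPM against 19.7 to 21.1, CDC20 was 532 CPM against 454 to 471 and CSF1 was 95.8 CPM against 131 to 151. There, CXCL1 was 117 CPM against 139 to 152, IFNGR1 was 23.4 CPM against 40.9 to 50.8, MKI67 was 119 CPM against 89.9 to 98 and TIMP3 was 204 CPM against 243 to 262. In WT_shCTRL replicate 6, EGR1 was 48.2 CPM against 60.1 to 66.6, HLA-B was 1500 CPM against 1340 to 1390, IL23A was 9.55 CPM against 7.65 to 8.11 and ISG15 was 421 CPM against 296 to 318. There, PDGFA was 679 CPM against 720 to 728, TREM2 was 685 CPM against 572 to 613 and TYROBP was 1120 CPM against 902 to 948. In CD33KO_shCTRL replicate 3, CD209 was 25.2 CPM against 15.8 to 19.1, CYBB was 26.1 CPM against 17.6 to 20.6 and MSR1 was 23.4 CPM against 15.8 to 18.3. In CD33KO_shPTPN6 replicate 4, HMGCS1 was 170 CPM against 133 to 138, TRAC was 121 CPM against 88.7 to 90.5 and TREM2 was 206 CPM against 176 to 182. In WT_shPTPN6 replicate 6, BCL2A1 was 50.3 CPM against 37 to 41.5, FTL was 3430 CPM against 3220 to 3300 and THBD was 76.7 CPM against 57.1 to 64.4. In CD33KO_shPTPN6 replicate 1, CXCL1 was 62.7 CPM against 47 to 50.5 and S100A8 was 351 CPM against 299 to 312. In CD33KO_shPTPN6 replicate 3, ATP5F1B was 461 CPM against 397 to 414 and RELA was 89.1 CPM against 106 to 113. In WT_shCTRL replicate 1, CDC6 was 29.2 CPM against 33.9 to 35.7 and EMP1 was 466 CPM against 492 to 507. In WT_shCTRL replicate 4, KLF6 was 176 CPM against 153 to 161 and NFKBIA was 364 CPM against 396 to 411. In WT_shPTPN6 replicate 1, GPR84 was 39.3 CPM against 27.9 to 31 and NFKBIA was 417 CPM against 283 to 322. In WT_shPTPN6 replicate 4, CDC20 was 104 CPM against 118 to 125 and FCN1 was 41.5 CPM against 45.7 to 47.8. CD33KO_shCTRL replicate 1 stood apart for 1 gene, as FCN1 was 0.978 CPM against 0 in each other library. WT_shCTRL replicate 5 stood apart for 1 gene, as ADAM17 was 526 CPM against 500 to 506. WT_shPTPN6 replicate 2 stood apart for 1 gene, as BMP8B was 113 CPM against 117 to 120. WT_shPTPN6 replicate 3 stood apart for 1 gene, as HAND2 was 1.41 CPM against 0.162 to 0.602. WT_shPTPN6 replicate 5 stood apart for 1 gene, as SLC13A3 was 1.5 CPM against 0.249 to 0.602.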

How the results depend on the processing

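The counts of genes with a higher and a lower interaction stayed within 1.5 times of the reported ones under every alternative run. The total called was 3640 by DESeq2, 3718 with RLE scaling, 3712 with total counts only, 3621 by limma-voom, 3253 with no filter, 3513 at a mean of at least 5 CPM and 3135 with every library thinned to the lowest total. Of these, 3600, 3712, 3688, 3527, 3085, 3417 and 2963 were among the 3717 reported, and none of the shared genes had the opposite sign. Leaving out each library in turn gave 1731 to 1867 higher and 1698 to 1876 lower, and at 2-fold or more 529 to 570 higher and 417 to 453 lower. The replicate numbers did not pair the libraries: libraries with the same number in different groups had correlations of deviations of -0.0493 to 0.0324, and 3 of 23 correlated best with their own number. With the replicate block 3626 genes were called, 1862 higher and 1764 lower, 3574 of them shared. On the linear CPM scale, which was given no test, the interaction had the opposite sign, among the 121 genes recomputed, for CCL1 (-80.5 CPM), CDH2 (-27.2), CEBPB (45.8), CSF1R (-20.9), CYBB (-271), EGR1 (-8.72), GCLM (-11.8), GFI1 (-5.73), HLA-DRB1 (2.57), HSPA1B (0.437), IER3 (954), MMP1 (-10.6), NDRG1 (151), PDGFRA (-1.17), PECAM1 (121), PTPN6 (3.74) and TRAF1 (-4.24), and, outside those, for IL1B (2547). The lower totals of the knockout limit genes of few counts, for which a missing call shows no equal response.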
